A study of Mus musculus with 18 samples.

Results

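In the cerebral cortex of adult mice, 2072 genomic regions carried peaks of serine 5 phosphorylated RNA polymerase II (PolII_S5P) in at least 2 of 3 animals and no peak of acetylated histone H3 lysine 27 (H3K27ac) in any animal. They are 22.5% of the 9206 regions with PolII_S5P in at least 2 libraries, and 9206 of 23062 merged regions met that requirement. The remaining 7134 regions (77.5%) overlapped an H3K27ac peak in 1 or more libraries and are called acetylated regions here. The regions were chosen by PolII_S5P and H3K27ac peaks on chromosomes 1 to 19, so their polymerase strength, width, spacing and distance to H3K27ac are described without a test, while MBD3, H3K4me1 and TDG peaks took no part in the choice. All positions are on mm39, counted from 1.

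The libraries come from frozen cortex of 3 wild-type female C57BL/6J mice, animals 5, 7 and 9, aged 14 weeks, with no treatment. Each animal has 1 chromatin immunoprecipitation (ChIP-seq) library for each of PolII_S5P, H3K27ac, H3K4me1, MBD3 and TDG, and each library has its own deposited peak list. The 3 input samples were not analysed here. Whole cortex mixes neurons, glia and other cells, so peaks of 2 antibodies at 1 region need not come from the same cells, and a weak peak cannot be told apart from a peak in few cells.

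RNA polymerase II is phosphorylated on serine 5 of its C-terminal repeats as it starts transcription, and this form gathers near gene starts. Acetylation of H3K27 is found at promoters and enhancers in use, while H3K4me1 is typical of enhancers and of the flanks of promoters. In mouse embryonic stem cells the serine 5 form has also been found at silent developmental genes held by Polycomb, so this form alone does not show that a gene is productively transcribed. MBD3 belongs to NuRD, a complex that both remodels nucleosomes and removes histone acetylation. The repair enzyme TDG, thymine DNA glycosylase, removes thymine from mismatches and oxidized forms of methylcytosine.

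The choice of regions depended on the lengths of the polymerase lists. On the autosomes PolII_S5P had 4351, 19509 and 12526 peaks in animals 5, 7 and 9, and 29.03%, 10.7% and 16.5% of these peaks lay in the 2072 regions. Of the 2072 regions, 802 (38.7%) had polymerase in all 3 libraries and 1006 (48.6%) in animals 7 and 9 alone. Of regions with polymerase in exactly 3 libraries 26.4% lacked H3K27ac, against 20.6% of those with exactly 2. With an animal left out and both others required, the counts were 987 without animal 7, 1045 without animal 9 and 2039 without animal 5. The H3K27ac list of that animal was left out too, so these counts can include regions where it has an H3K27ac peak. Read depth is unknown, and the share of regions with a peak depends on the length of each list.

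Just inside the rule, 22 regions lay 2 to 97 bp from an H3K27ac peak, with a median width of 466 bp. Just outside it, 521 regions overlapped H3K27ac in exactly 1 library, of which 257 did so in animal 5, 190 in animal 7 and 74 in animal 9. The median overlap of those 521 with H3K27ac was 314 bp (lowest 2 bp), and 35 overlapped by 100 bp or less. Their strongest H3K27ac peak had a median fold at the percentile 26.9 of its own list, so most were in the weaker part of their lists. A further 6285 regions had polymerase in 1 library and no H3K27ac, 45.4% of all regions seen once, with a median width of 301 bp.

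Regions without H3K27ac were wide. Their median width was 728 bp (quartiles 465 and 1227 bp, highest 13292 bp), against 559 bp (400 and 764 bp, highest 8629 bp) for acetylated regions, and 209 of them (10.1%) reached 2 kb, against 223 acetylated regions (3.13%). The difference was larger among regions with polymerase in all 3 libraries, with medians of 1218 bp without H3K27ac and 662 bp with it. Among regions with polymerase in 2 libraries the medians were 566 and 515 bp. The share of polymerase regions that lacked an H3K27ac peak was 43.1% at widths of 1000 bp or more, against 16.9% under 750 bp. A wide region has more room to touch an H3K27ac peak, and what sets these shares was not tested. More than 1 peak of the same library was joined in 14.6% of regions without H3K27ac and 5.42% of acetylated regions.

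**Figure D1:**
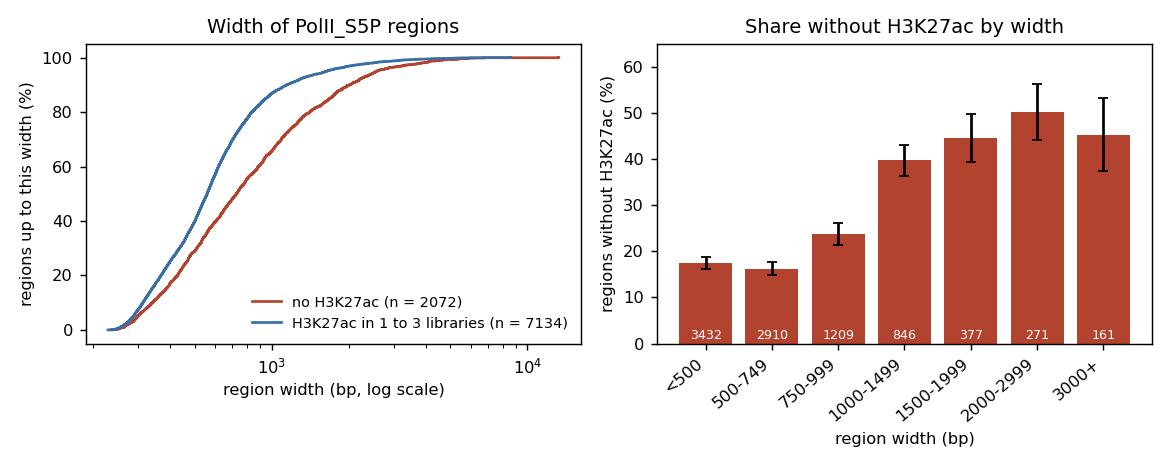
Left, cumulative share of PolII_S5P regions (%) by width (bp, log scale) for 2072 regions without H3K27ac and 7134 acetylated regions. Right, share of regions in each width class that lack H3K27ac (%), with exact 95% binomial intervals that cover counting error only and the number of regions in white. The share is 17.5% under 500 bp and 50.2% in the class that starts at 2000 bp.

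In fold enrichment, the authors' ratio of a peak to its local background, regions without H3K27ac matched or exceeded acetylated regions within each list. The median percentile of fold in the library's own list was 68.2, 69.3 and 60.7 in animals 5, 7 and 9 for regions without H3K27ac, and 44.4, 69.3 and 48.8 for acetylated regions. Of regions without H3K27ac, 20.8%, 22.3% and 16.9% ranked in the top 10% of the list in these animals, against 7.89%, 19.3% and 11.6% of acetylated regions. The 2 classes overlapped widely in every library, and in animal 7 their medians were the same to 3 digits. Among regions with polymerase in all 3 libraries the median percentiles were 75.6, 87.3 and 72.3 without H3K27ac and 45.8, 85.7 and 70.8 with it. Among those with polymerase in 2 libraries they were 51.5, 57.6 and 54.5 against 35.4, 59.9 and 40.7, so in animal 7 acetylated regions ranked higher there. The −log10 q-value ran differently, with medians of 6.84, 7.22 and 6.13 for regions without H3K27ac against 7.11, 13.4 and 11.6 for acetylated regions. The very strongest polymerase peaks were acetylated, with highest folds of 27.8, 30.8 and 23.1 without H3K27ac and 78.3, 150 and 141 with it.

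**Figure D2:**
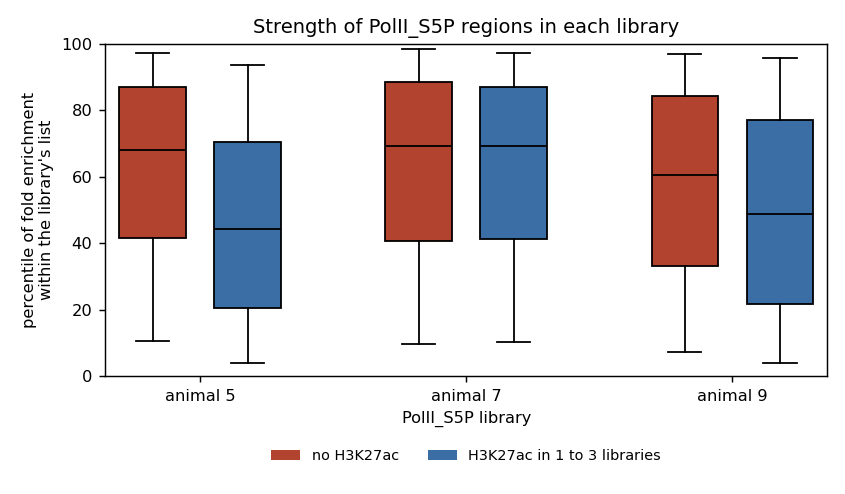
Percentile of PolII_S5P fold enrichment within each library's list (y axis) for regions without H3K27ac (left box of each pair) and acetylated regions (right box), by animal. Boxes show quartiles with the median, and whiskers run from the 5th to the 95th percentile. Medians of regions without H3K27ac lie above those of acetylated regions in animals 5 and 9 and level with them in animal 7.

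The folds of a region were moderately correlated between animals. Over 1010, 858 and 1808 regions without H3K27ac seen in both libraries of a pair, Spearman's rho of the folds was 0.656 for animals 5 and 7, 0.603 for 5 and 9 and 0.534 for 7 and 9, a description over regions that share the same 3 libraries. For acetylated regions the values were 0.506, 0.571 and 0.594.

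Regions were ranked by the mean over the 3 libraries of their fold percentile, so the order within 1 library can differ. The first of the ranking lay on chromosome 6, 49194318 to 49195808, with PolII_S5P folds of 27.8, 28.98 and 19.4 in animals 5, 7 and 9. It had no MBD3, H3K4me1 or TDG peak, and its nearest H3K27ac peak was 44277 bp away. The next lay on chromosome 10, 102862385 to 102864382, with folds of 17.7, 24.5 and 23.1, and 338657 bp from H3K27ac. Chromosome 13 held 3 of the 10 strongest, close together, at 120426429 to 120429771, 120485985 to 120499276 and 120556311 to 120559189, with folds of 17.3, 24.8 and 21.6 in the first, 16.0, 13.3 and 21.0 in the second and 20.1, 26.1 and 17.2 in the third. The second of these was also the widest of all 2072 regions, at 13292 bp. None of the 3 touched another antibody's peak.

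Both other regions on chromosome 10 among the 10 strongest, 50771361 to 50775302 and 51898489 to 51900571, had folds of 13.4, 17.9 and 13.0 and of 12.7, 15.0 and 12.6. The region at 51898489 carried the only MBD3 peak among the 10, in animal 7 (fold 4.25). Chromosome 6, 83047266 to 83048388, was the nearest of the 10 to acetylation, 6344 bp away, and had folds of 15.0, 30.8 and 12.7. Chromosome 5, 67252279 to 67258925, and chromosome 2, 170337133 to 170338345, completed the 10. The region on chromosome 5 spans 6647 bp and is among the 3 widest. The widest but one, chromosome 9, 55446840 to 55453747, had lower folds of 10.0, 15.55 and 5.76 and likewise no peak of another antibody. Of the 100 strongest regions with polymerase in all 3 libraries, 9 had an MBD3 peak in any library, 3 an H3K4me1 peak and 1 a TDG peak. Over all 802 such regions the shares were 12.5%, 9.98% and 1.496%, so the MBD3 and TDG counts are near those of the whole set.

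Distances to H3K27ac spanned a very wide range with 2 humps. The median distance from a region to the nearest H3K27ac peak of any animal was 10189 bp, with quartiles of 2318 and 72645 bp and a highest value of 1086705 bp. On a log scale the counts peaked between 3.98 and 10 kb (177 regions in each of 2 bins), dropped to 94 regions between 25.1 and 39.8 kb and reached 209 regions between 63.1 and 100 kb. Within 1 kb lay 285 regions (13.8%), and 367 (17.7%) lay over 100 kb away.

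Regions far from H3K27ac were more often called in every animal. Polymerase was found in all 3 libraries at 20.4% of regions within 1 kb of H3K27ac, 23.7% at 1 to 10 kb, 49.8% at 10 to 100 kb and 63.2% beyond 100 kb. The median width was 673, 644, 826 and 859 bp in the same order, and 4.91%, 5.89%, 13.5% and 16.3% reached 2 kb. Regions with polymerase in 3 libraries had a median distance of 55334 bp, against 5882 bp for those with 2. The farthest region, chromosome 17, 40157403 to 40158916, was weak, with folds of 2.04, 3.13 and 1.58, and had MBD3 peaks in animals 5 and 7. The following 2 were neighbours on chromosome 13, 116432985 to 116434740 and 116435305 to 116435702, at 676392 and 675430 bp from H3K27ac. The smaller of them had the higher folds, 7.86, 9.503 and 9.98, against 2.94, 4.46 and 7.88.

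**Figure D3:**
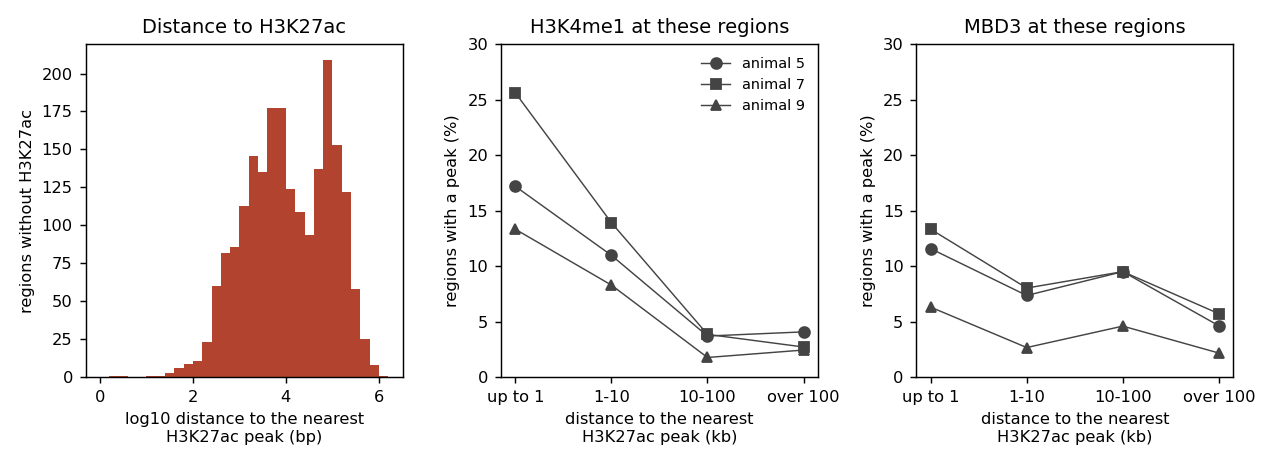
Left, number of regions without H3K27ac by log10 distance (bp) to the nearest H3K27ac peak of any animal, with 209 regions in the highest bin. Middle and right, share of these regions with an H3K4me1 or MBD3 peak (%) by distance class (kb), with 1 line per animal; the H3K4me1 share is highest within 1 kb in each animal.

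Regions without H3K27ac came in groups. When neighbours less than 10 kb apart were joined, 1314 of 2072 (63.4%) shared a group with another region without H3K27ac, and 552 (26.6%) lay in 76 groups of at least 5. For acetylated regions, which are more numerous, these shares were 30.8% and 12.5%. Their largest group was bigger, with 81 regions against 27 without H3K27ac. The median gap to the next region of the same class was 21320 bp without H3K27ac and 81465 bp with it. Gaps under 1 kb made up 22.0% and 8.91% of all gaps, and whether such neighbours are parts of 1 longer stretch was not tested. Where the preceding polymerase region within 10 kb lacked H3K27ac, the next one lacked it too in 74.5% of 1147 cases, and where the preceding one was acetylated, in 18.1% of 1744.

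The largest group of regions without H3K27ac held 27 of them over 77.9 kb on chromosome 7, 59351044 to 59428922. Polymerase was called in all 3 libraries at 17 of the 27. The median fold was 3.89, 4.32 and 4.88 in animals 5, 7 and 9, and the regions were narrow (median 454 bp). Another 13 regions, named after their position was seen, lay on the same chromosome at 59508979 to 59551396, with 11 in all 3 libraries. The span of the larger group held 3, 2 and 4 peaks of H3K27ac in animals 5, 7 and 9, 3, 2 and 3 of H3K4me1 and 2, 6 and 3 of MBD3. It also held 2, 0 and 5 TDG peaks, of 125, 240 and 934 on all autosomes. This group was 1 of 2 among the 76 groups with any TDG peak in the span. Of its 27 regions themselves, 0 overlapped a TDG peak in any library, 3 an MBD3 peak and 2 an H3K4me1 peak. Over all 2072 regions the shares were 1.30%, 11.8% and 14.2%, so the TDG and MBD3 counts are near those of the whole set.

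The groups next in size had another makeup. The group of 15 on chromosome 6, 31119165 to 31173415, lay among H3K4me1, with 23, 30 and 23 H3K4me1 peaks in its 54.3 kb in animals 5, 7 and 9, and 13 of its 15 regions overlapped H3K4me1 in some library. The group of 14 on chromosome 2, 136562205 to 136618811, had 11, 16 and 11 H3K4me1 peaks and polymerase in all 3 libraries at only 1 region. Acetylated polymerase regions also lay in all 3 spans, 11 on chromosome 6, 7 on chromosome 2 and 5 in the group of 27 on chromosome 7.

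In 35 of the 76 groups of at least 5, by contrast, the whole span held no peak of H3K27ac, H3K4me1, MBD3 or TDG in any animal. These 35 groups, a set picked out after their peaks were seen, comprised 229 regions, of which 68.6% had polymerase in all 3 libraries, against 44.9% of the 323 regions in the other groups. Their closest region to H3K27ac was a median of 78013 bp away. The largest was a run of 11 regions on chromosome 12, 73084255 to 73101964, where 9 regions had polymerase in all 3 libraries and the median step between midpoints was 1512 bp. Its median fold was 5.73 in animal 5, 4.90 in animal 7 and 4.55 in animal 9. Next came 10 regions each on chromosome 3, 128989489 to 129016590, and chromosome 8, 57763121 to 57788372.

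**Figure D4:**
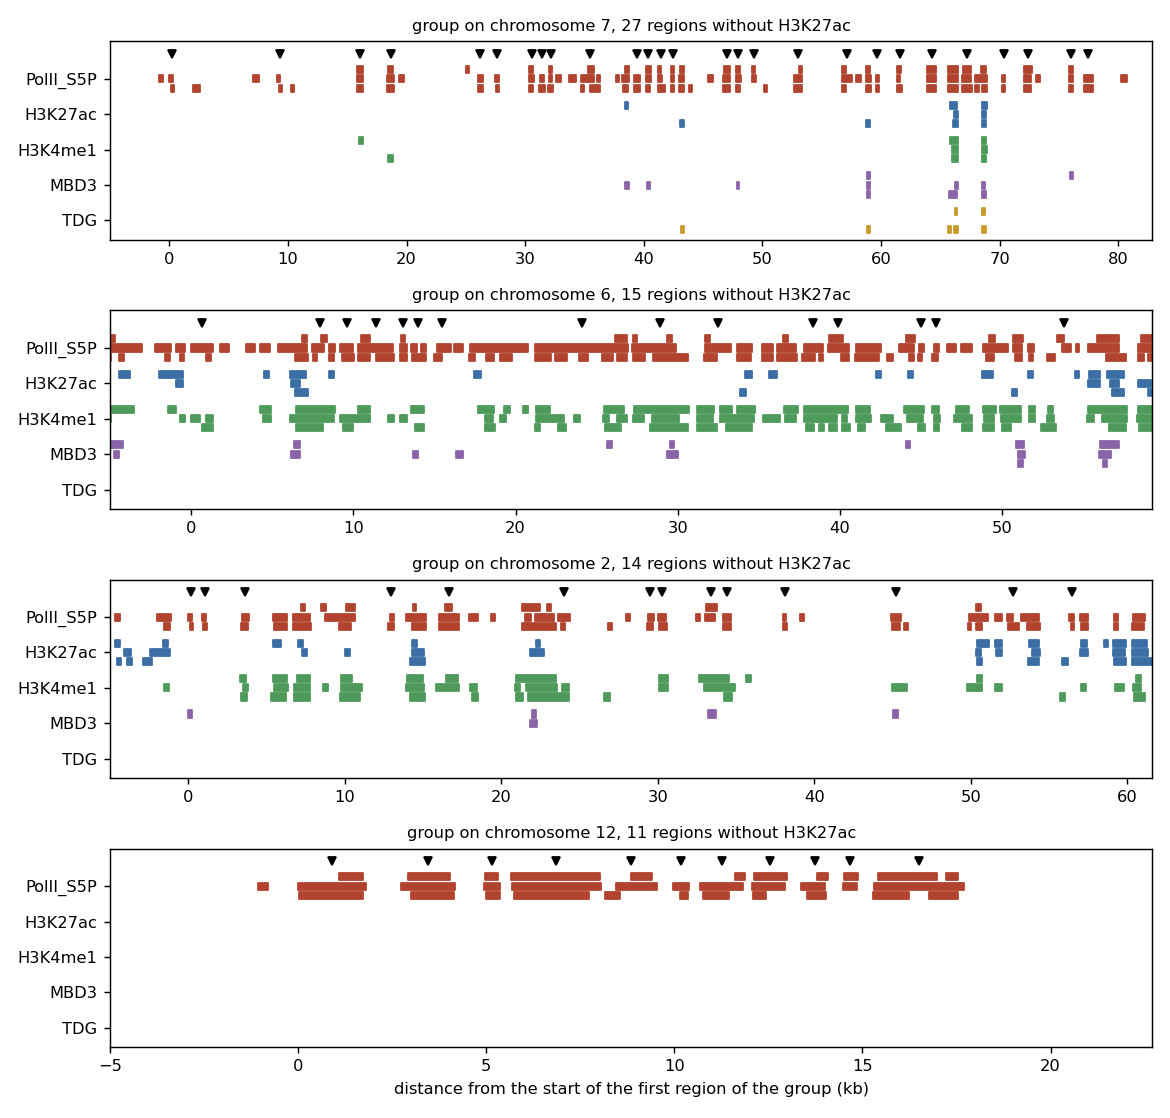
Peaks of each antibody in 4 groups of regions without H3K27ac, drawn to scale against the distance from the start of the first region (kb). Each antibody has 3 rows, for animals 5, 7 and 9 from top to bottom, and black triangles mark the regions without H3K27ac. The upper 3 panels are the largest groups, with 27, 15 and 14 regions, and the lowest panel is the run of 11 on chromosome 12 with polymerase peaks and no other.

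MBD3 was scarce at polymerase regions without H3K27ac and frequent at acetylated ones. MBD3 peaks lay at 8.16%, 8.83% and 3.72% of the 2072 regions in animals 5, 7 and 9, against 83.4%, 84.4% and 68.6% of acetylated regions, so the groups of 3 values did not overlap. Over all 9206 regions the shares were 66.5%, 67.4% and 54.0%. The mean was 6.90 ± 2.78% without H3K27ac and 78.8 ± 8.87% with it (SD, n = 3 each), a difference of -71.9 ± 6.10 percentage points (two-sided exact permutation p = 0.1, the smallest that 3 against 3 allows, adjusted p = 0.4 over 4 comparisons). The difference kept its direction in 15 of 15 combinations of animal and class of region width, from -84.25 to -50.0 points. It also did so in 15 of 15 combinations of animal and class of polymerase strength.

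The share with MBD3 followed the number of libraries with H3K27ac. It was 31.7%, 31.5% and 18.0% in animals 5, 7 and 9 at regions acetylated in 1 library, 63.03%, 65.6% and 39.8% at those acetylated in 2, and 90.2%, 91.2% and 76.2% at those acetylated in 3. Taking MBD3 peaks in at least 2 libraries, 127 of 2072 regions (6.13%) had them, against 82.3% of acetylated regions and 65.2% of all 9206. Most regions without H3K27ac, 1579 (76.2%), had no MBD3, H3K4me1 or TDG peak in any animal, which held for 5.14% of acetylated regions.

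**Figure D5:**
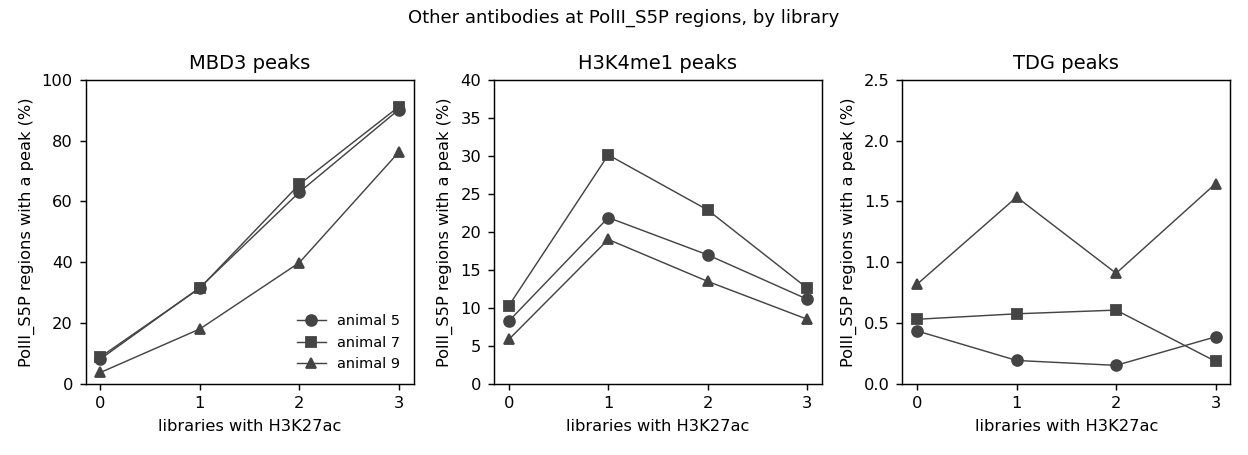
Share of PolII_S5P regions (%) with a peak of MBD3, H3K4me1 or TDG in each library, by the number of libraries with H3K27ac (x axis, 0 being the 2072 regions without it). Lines join the values of 1 animal, and the 3 y axes differ in scale. The MBD3 share lies between 3.72% and 8.83% at 0 and between 76.2% and 91.2% at 3.

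The 58 regions with MBD3 in all 3 libraries were narrow, with a median width of 340 bp against 732 bp for the 1828 with none. By the order of polymerase strength the first of them were chromosome 2, 51927966 to 51928381 (MBD3 folds 4.40, 6.96 and 3.98 in animals 5, 7 and 9), chromosome 4, 20460379 to 20460685 (9.69, 10.5 and 9.59), and chromosome 16, 94090034 to 94090340 (16.5, 22.3 and 21.5). The last of these lay 180 bp from an H3K27ac peak and the second 56639 bp from one, and none of the 3 had a polymerase peak in animal 5. The MBD3 peaks on regions without H3K27ac were weaker than those on acetylated regions in 2 of 3 libraries, with median percentiles in the MBD3 list of 28.5 and 30.5 in animals 5 and 7 against 74.2 and 71.9. In animal 9 the order was the other way, 45.7 against 36.25. Summits of MBD3 and polymerase were close in both classes, with median offsets of 93, 98 and 67 bp without H3K27ac and 123, 122 and 126 bp with it.

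H3K4me1 differed much less between the 2 classes. Its peaks lay at 8.25%, 10.3% and 5.84% of regions without H3K27ac in animals 5, 7 and 9, against 12.5%, 14.8% and 9.73% of acetylated regions and 11.5%, 13.8% and 8.85% of all 9206. The difference of -4.22 ± 0.331 points (SD, n = 3) was negative in 3 of 3 animals, at -4.21, -4.55 and -3.89 points in animals 5, 7 and 9. Taken without the pairing by animal, the ranges of the classes overlap (two-sided exact permutation p = 0.2, adjusted p = 0.4). Paired by animal, the exact sign-flip p was 0.25, the smallest that 3 pairs allow. The difference turned to 2.75 points when regions within 10 kb were counted once, an alternative chosen after seeing the data. At a −log10 q-value of at least 5 it was 0.757 points.

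The H3K4me1 difference varied with width. Regions were split into 5 width classes of like size. The difference was negative in 8 of 15 combinations of animal and width class, from -25.45 to 2.74 points. By class of polymerase strength instead, the difference was negative in 13 of 15 combinations, from -10.6 to 0.702 points. In the widest class, from 943 bp up, H3K4me1 lay at 7.38%, 7.64% and 4.48% of those without H3K27ac in animals 5, 7 and 9, against 29.3%, 33.1% and 23.8% of acetylated ones. In the narrowest class, up to 379 bp, the order was the reverse, with 8.87%, 10.9% and 7.51% against 6.13%, 8.20% and 4.97%. Counting peaks up to 1 kb away, also chosen after seeing the data, gave 14.3%, 16.2% and 9.31% without H3K27ac and 34.0%, 42.9% and 25.2% with it, a mean difference of -20.8 points. Among regions grouped by the number of libraries with H3K27ac, from 0 to 3, those with exactly 1 had the highest H3K4me1 share in each animal, 21.9%, 30.1% and 19%.

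H3K4me1 at regions without H3K27ac was more frequent within 10 kb of acetylation than farther away. Within 1 kb of an H3K27ac peak its share was 17.2%, 25.6% and 13.3% in animals 5, 7 and 9. It was 10.98%, 13.9% and 8.30% at 1 to 10 kb, 3.71%, 3.86% and 1.78% at 10 to 100 kb, and 4.09%, 2.72% and 2.45% beyond 100 kb. The MBD3 share was likewise highest within 1 kb and lowest beyond 100 kb in each animal, but it was lower at 1 to 10 kb than at 10 to 100 kb, with 11.6%, 13.3% and 6.32% within 1 kb, 7.36%, 8.03% and 2.68% at 1 to 10 kb, 9.51%, 9.51% and 4.61% at 10 to 100 kb and 4.63%, 5.72% and 2.2% beyond. In at least 2 libraries, 150 regions (7.24%) had H3K4me1, against 12.2% of acetylated regions and 11.1% of all. Both H3K4me1 and MBD3, each in at least 2 libraries, were present at 9 regions without H3K27ac (0.434%) and 320 acetylated regions (4.49%).

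The regions with H3K4me1 in all 3 animals numbered 60. The leading ones by polymerase strength were chromosome 8, 20149503 to 20149932, and chromosome 8, 19840505 to 19840830, each 1837 bp from H3K27ac, with H3K4me1 folds of 4.58, 5.28 and 5.49 in animals 5, 7 and 9 at the first and 3.69, 3.64 and 5.42 at the second. Polymerase at both was called in animals 5 and 9 alone. The third, chromosome 6, 31140357 to 31146104, is 5748 bp wide and belongs to the group of 15 described above.

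Within regions without H3K27ac, MBD3 and H3K4me1 were about equally frequent. The MBD3 share minus the H3K4me1 share was -1.22 ± 1.03 points (SD, n = 3), negative in 3 of 3 animals (two-sided exact permutation p = 0.6, adjusted p = 0.8). Paired by animal, the exact sign-flip p was 0.25, the smallest that 3 pairs allow. MBD3 nevertheless had the longer list in each animal, with 56738, 61187 and 38821 autosomal peaks against 33744, 45575 and 22555. At acetylated regions the same subtraction gave 66.5 ± 6.63 points. The small difference without H3K27ac turned to 3.13 points at a −log10 q-value of at least 5, 3.00 points with lists of equal length, 1.205 points with polymerase required in all 3 libraries and 1.39 points without animal 9.

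TDG peaks were rare at polymerase regions of either class. They lay at 9, 11 and 17 regions without H3K27ac in animals 5, 7 and 9, or 0.434%, 0.531% and 0.820% (exact 95% intervals 0.199 to 0.823%, 0.265 to 0.948% and 0.479 to 1.31%). These intervals cover counting error only and treat the regions as independent, although many lie in groups. At acetylated regions the shares were 0.350%, 0.252% and 1.57%, and over all 9206 regions 0.369%, 0.315% and 1.40%. The difference of -0.129 ± 0.546 points (SD, n = 3) was negative in 1 of 3 animals (two-sided exact permutation p = 1, adjusted p = 1), and no difference was detectable with so few peaks. In 2 or more libraries TDG was found at 9 regions (0.434%), against 0.238% of acetylated regions and 0.282% of all.

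Of the 27 regions with TDG in any library none lay within 1 kb of H3K27ac, where 13.8% of all 2072 lay, and 11 of the 27 lay over 100 kb away, against 17.7% of all 2072. Of these 11, 5 are neighbours in a single stretch of chromosome 10, from 3059546 to 3066925. H3K4me1 was present in some library at 16 of the 27 and MBD3 at 8, where over all 2072 regions the shares were 14.2% and 11.8%. Of the 130 acetylated regions with TDG, 62 had H3K4me1 and 119 had MBD3. Over all 7134 acetylated regions the shares were 17.3% and 86.9%, so the MBD3 count is near that of the whole class. Set against their own lists, 7.20%, 4.58% and 1.82% of the autosomal TDG peaks of animals 5, 7 and 9 lay on the 2072 regions, and 20.8%, 7.50% and 12.4% on acetylated regions.

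One region had TDG in all 3 animals, chromosome 10, 3059546 to 3060393. Its TDG folds were 1.59, 2.35 and 1.79 and its polymerase folds 2.30, 1.59 and 1.90 in animals 5, 7 and 9, among the lowest of their lists. It begins a stretch that ends at 3066925 and holds 5 of the 27 TDG regions, picked out after its position was seen, with polymerase folds of 1.33 to 3.04. Of all 2072 regions 10 had a fold under 2 in every library where they were called, 5 of them with TDG, and no acetylated region did. The other leading TDG regions were chromosome 15, 74958126 to 74958406, with TDG in animals 5 and 7 (folds 4.34 and 3.64), and chromosome 10, 85249936 to 85251371, with TDG in animals 5 and 9 (4.99 and 5.43).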

How the data were processed

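The measured quantity is ChIP-seq peaks, 1 list for each of 15 libraries (5 antibodies, 3 animals). The build is mm39 and the peak caller MACS2 2.2.7.1, per the submitters' processing notes, which also name Picard 2.18.29, SAMtools 1.16.1, Trim Galore 0.6.7 and bcl2fastq 2.20. For aligner and control library, no name is given in the sources used here. For each peak the authors deposited a whole-number score, the fold enrichment as a ratio, the −log10 of its p-value and of its q-value, and the offset of its summit in bp. Fold was used only as a rank or description within its list. The lowest −log10 q-value per list lay between 1.30 and 1.44.

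PolII_S5P peaks of chromosomes 1 to 19 were merged where they overlapped by at least 1 bp. A region's value in a library is its strongest peak, and distances are to the nearest peak edge of any animal. Shares were compared over libraries by two-sided exact permutation tests with Benjamini-Hochberg adjustment over 4 comparisons. Per the labels a number marks 1 animal across antibodies, which pairs the libraries, and the paired test is among the alternatives. Intervals of shares cover counting error only and treat regions as independent, although many lie in groups.

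The members and lists were chosen with earlier results of these data known. Regions were named by rule: the 10 strongest in all 3 libraries, the 3 widest, the 3 farthest, the 3 largest groups, and the 3 leading regions for each other antibody. The gene and promoter tables at hand are on GRCm38.p6, so no gene or sequence is given and the planned promoter and CpG descriptions were not run. On 3000 simulated regions the code recovered 20 of 20 planted counts. Tools were scipy 1.17.1, pandas 2.3.3, numpy 2.4.6 and matplotlib 3.10.9 in Python 3.11.15.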

Additional observations from a re-analysis of the deposited data

Results flagged for a closer look

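Chromosomes X and Y lie outside the comparisons. On chromosome X 25 regions had PolII_S5P in at least 2 libraries and no H3K27ac peak, beside 102 acetylated ones, and the 25 exceed the limit of 3 set for a count of 0. On chromosome Y there were 1 and 5, although the animals are given as female and should carry no chromosome Y. The origin of these Y peaks was not tested.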

How the results depend on the processing

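The number of regions without H3K27ac followed the rule's settings. It was 1279 at a −log10 q-value of at least 5, 534 with lists of equal length per antibody and 802 with polymerase in all 3 libraries. The q-value and equal-length settings also shortened the H3K27ac lists, so the 1279 and the 534 can include regions that overlap a dropped H3K27ac peak. With each animal left out, its H3K27ac list included, the number ranged from 987 to 2039. It stayed within 1.5 times of 2072 in the other 3 settings run. The MBD3 difference kept its direction in 17 of 17 alternatives, from -81.2 to -60.3 percentage points, and paired by animal it was -71.9 points (replicate block, exact sign-flip p = 0.25, the smallest that 3 pairs allow). The H3K4me1 difference was reversed in 3 of 17, at 0.757 points (−log10 q of at least 5), 0.682 points (equal lists) and 2.75 points (regions within 10 kb counted once). The TDG difference was reversed in 4 of 17, at 0.0345, 0.212 and 0.0980 points in the same 3 settings, and ranged from -0.472 to 0.0103 with each animal left out, the positive value being without animal 9. MBD3 minus H3K4me1 at regions without H3K27ac was reversed in 4 of 12, at 3.13 points (q-value), 3.00 points (equal lists) and 1.205 points (polymerase in all 3 libraries), and ranged from -2.23 to 1.39 with each animal left out. The cause of these changes was not tested. No test of 3 against 3 libraries can pass 0.05 here, so the p-values say nothing about stability, and the paired test changed no call.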

Other observations

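The share of polymerase regions that lacked H3K27ac varied between chromosomes. It was highest on chromosome 12, at 113 of 406 regions (27.8%), and chromosome 13, at 143 of 514 (27.8%), and lowest on chromosome 16, at 50 of 342 (14.6%). Chromosome 2 held the most, 222 of 917 (24.2%).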
